A study of Mus musculus with 78 samples.

Results

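Male B6C3F1 mice drank water with 3.5 g/L dichloroacetic acid (DCA) for 10 weeks and then plain drinking water for 47 weeks (S1-57), and their livers were compared with livers of mice given drinking water alone for 57 weeks (Control-57). The comparison asked which liver transcripts still differed long after the exposure had ended. Its members were the libraries with these treatment labels that are also columns of the authors' normalized table: 6 of S1-57 and 6 of Control-57, or 12 of the 78 libraries deposited, of which 68 were kept. RNA was counted with TempO-Seq, an assay that ligates a probe pair bound side by side on its target transcript and sequences the product, for a panel of 2755 genes in sections of archived, formalin-fixed and paraffin-embedded liver, 1 library for each mouse. In every group treatment began at 4 weeks of age. S1-32 (10 weeks of DCA, 22 weeks of water, 6 mice) was read against Control-32 (32 weeks of water, 6 mice), S1-78 (10 weeks of DCA, 68 weeks of water, 6 mice) against Control-78 (78 weeks of water, 6 mice), and S3-57 (57 weeks of DCA without a water phase) kept 5 of its 6 libraries. The level of DBP alone is also given in S1-10 (10 weeks of DCA), S2-32 (32 weeks of DCA), S2-78 (32 weeks of DCA, 46 of water), S3-78 (57 weeks of DCA, 21 of water), Direct-78 (78 weeks of DCA) and Control-10 (10 weeks of water). A library holds RNA of every cell type in the section, and the labels give no time of day for the collection.

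DCA inhibits the pyruvate dehydrogenase kinases, which hold back the enzyme complex that turns pyruvate into acetyl-CoA, so that more pyruvate is oxidised in mitochondria. In mouse liver it is known for a build-up of glycogen and for tumours after long exposure. Hepatocytes make most of the liver's RNA and hold its metabolic enzymes and transporters, while Kupffer cells, the resident macrophages, carry the receptors and adaptors of innate immunity. PDK1, PDK2, PDK3 and PDK4, the kinases that DCA inhibits, had no probe on the panel.

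All 12 libraries carried hepatocyte transcripts. Levels are given in CPM, counts scaled to a fixed library total after each total was adjusted by its TMM (trimmed mean) factor. The 14 hepatocyte markers on the panel summed to 70749 to 191649 CPM in S1-57, with a median of 128612, and to 92243 to 241874 in Control-57, with a median of 181526. Their most abundant member was APOE, the apolipoprotein of lipoprotein remnants, with 22.2% of the sum, and no member was at 0 in all 12 libraries. The difference in means did not pass an exact permutation test (2-sided, p = 0.154, adjusted p = 0.353 over 15 library measures). Library totals ran from 919268 to 3032863 counts in S1-57 and from 2223516 to 4153377 in Control-57 (exact permutation p = 0.165, adjusted p = 0.353). Between 1953 and 2747 genes had at least 1 count in S1-57, with a median of 2344.5, and between 2441 and 2623 in Control-57, with a median of 2513.5 (exact permutation p = 0.143, adjusted p = 0.353). The 10 most abundant genes of a library took a median of 36.7% of its counts in S1-57 and 37.95% in Control-57.

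A pair of libraries in each group stood apart. Mouse 82 of Control-57 held 18281 CPM of the 8 macrophage markers and mouse 84 held 6733, against 1487 to 3240.1 in the other controls. Mouse 84 also held 3923 CPM of the neutrophil and monocyte markers and 1545 CPM of the lymphocyte markers, and mouse 82 held 858 and 887. In S1-57, mouse 28 had the lowest total (919268 counts) and the fewest genes with a count (1953). Mouse 27 had the lowest hepatocyte sum (70749 CPM), and its male-biased genes, mainly the major urinary proteins, summed to 7350.1 CPM, against 92041 to 340001 in the rest of S1-57. Control mouse 84 shared these features: it had the lowest hepatocyte sum of the controls (92243 CPM), a male-biased sum of 34896 CPM against 186307 to 399963 in the other controls, and the lowest share of counts in the 10 most abundant genes (19.9%). Ranked over genes, mice 27, 28, 82 and 84 correlated with the mean of the other libraries at Spearman's rho of 0.865, 0.890, 0.902 and 0.926, and the other 8 at 0.933 to 0.975. The count of DEGs and the list medians whose sign turned are therefore also given without mice 82 and 84 or without mice 27 and 28, alternatives that were chosen after the values were seen.

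Livers that had been off DCA for 47 weeks differed from water controls in 35 of 2205 genes by edgeR. Of these 35 genes, 27 fell and 8 rose, whereas DESeq2 called 103, of which 61 were higher and 42 lower. The genes that fell included TYROBP and NFKBIA of myeloid and NF-kB signalling, FMO5, ALDH2 and UGT1A6A of hepatocyte metabolism, DPM1 and TMED10 of the secretory pathway, and DBP of the clock output. The genes that rose were SMC3, TRP53BP1, DMTF1, RBM15B, ILF2, PRKG1, PLCB3 and CHKA. Log2 decreases ran from -0.85 to -4.18 with a median of -1.31, and increases from 0.76 to 2.59 with a median of 1.25.

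Genes were tested with edgeR in 1 fit of all 68 libraries in 13 groups, and a gene was called differentially expressed (a DEG) at a Benjamini-Hochberg adjusted p of at most 0.05 and a fold change beyond 1.5. Changes are given as log2 fold changes ± a standard error worked back from the F statistic of the edgeR test, S1-57 over Control-57 with 6 mice in each. The 35 DEGs made up 1.59% of the genes tested, the 8 higher ones 0.363% and the 27 lower ones 1.22%. At an unadjusted p under 0.05, 132 genes (5.99%) were higher and 161 (7.3%) lower. Over all genes the median log2 fold change was 0.07, with 1193 of 2205 genes above 0, and scaling by relative log expression (RLE) or by upper quartiles moved this median by 0.11 and 0.12, to 0.18 and 0.19. With these scalings the DEGs were 28 (11 higher, 17 lower; 25 of the 35) and 28 (13 higher, 15 lower; 23 of the 35). In 29 genes (1.32% of those tested) the 6 S1-57 libraries all lay on one side of the 6 controls, 13 above and 16 below. Of the 35 DEGs, 16 were among them.

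Which genes passed the adjusted p depended on single mice, though no DEG changed sign in a fit without 1 library. In these fits the log2 fold change ran from -1.49 to -1.24 for MAN2B1, -1.24 to -1.02 for VDAC2 and 0.68 to 0.82 for DMTF1. Wider ranges were those of TYROBP, -3.52 to -1.92, and CYBB, -3.13 to -1.47. FMO5, NFKBIA, SMC3 and TMEM50A were DEGs in all 12 fits that left out 1 library, with adjusted p of at most 0.0170, 0.0380, 0.0380 and 0.0170. The other 31 lost their call in at least 1 such fit. Without mouse 82 there were 6 DEGs, without mouse 83 there were 8, without mouse 29 there were 9, and without mouse 30 there were 11. Leaving out mouse 27 gave 15, mouse 25 gave 16, mouse 28 gave 18 and mouse 81 gave 20. Leaving out mice 82 and 84 together gave 8, all lower, among them FMO5, ALDH2, DPM1, ENPP1, TMED10, TMEM50A and, outside the 35, ME1. Leaving out mice 27 and 28 together gave 7: FMO5, NFKBIA, PLCB3, SMC3, TMED10, TMEM50A and TYROBP. A fit of S1-57 and Control-57 alone called 2 genes, DBP (adjusted p = 0.00155) and TMEM50A (adjusted p = 0.0499). The 103 of DESeq2 held the 35, and limma, run on the authors' normalized values, called 20 (3 higher, 17 lower).

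**Figure D1:**
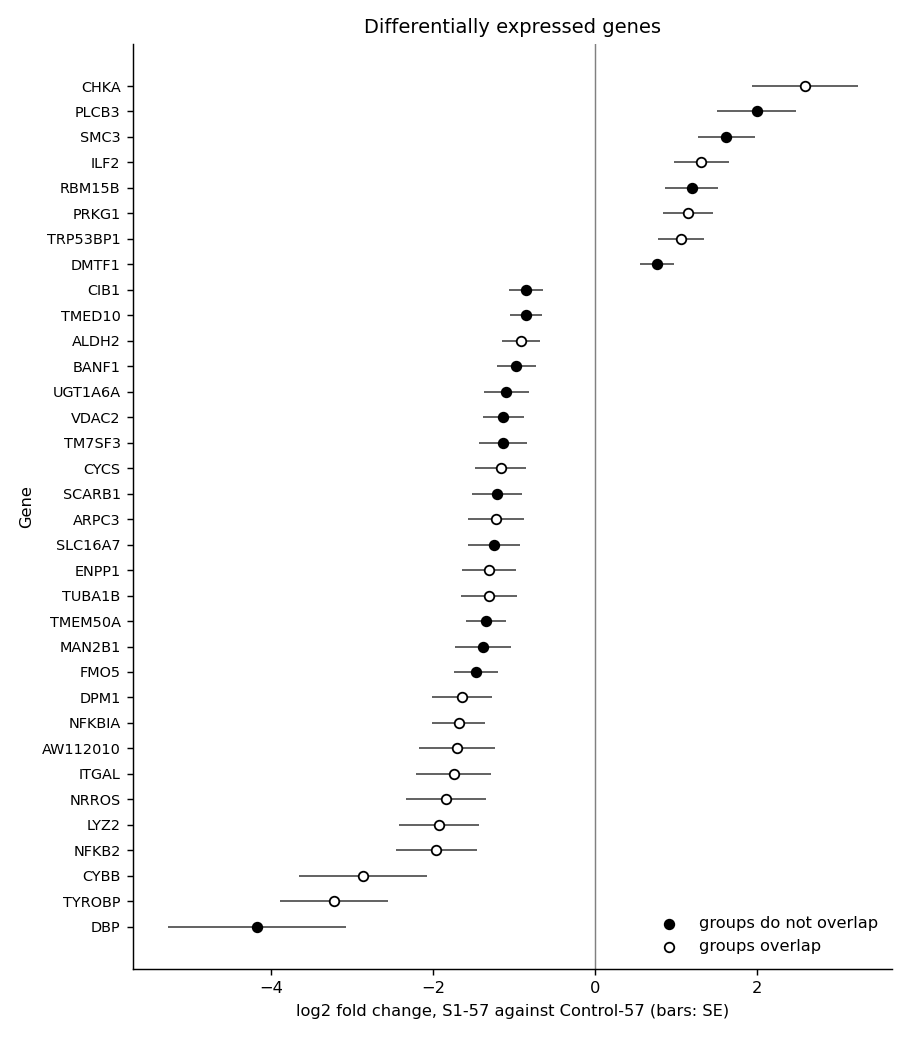
Log2 fold change of 34 of the 35 DEGs, S1-57 over Control-57, with bars of 1 standard error (6 mice per group); filled points mark genes whose groups do not overlap and open points the rest. The values run from -4.18 for DBP to 2.59 for CHKA, with 26 genes below 0 and 8 above.

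Genes of myeloid cells were among the larger decreases. TYROBP, the signalling adaptor of activating receptors on macrophages and natural killer cells (ENSMUSG00000030579, chr7:30413760-30417585 in GRCm38), was at 172 to 668 CPM in S1-57, with a median of 263, and at 484 to 12747 in Control-57, with a median of 1531. It fell by 3.23 ± 0.67 (adjusted p = 0.00511). S1-57 mice 25 and 27 lay above the lowest control, mouse 79, and mouse 82 was the highest control. Without mouse 82 the change was -1.92 and the call was lost (adjusted p = 0.142).

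CYBB, the membrane subunit of the phagocyte NADPH oxidase, was at 9.39 to 48.6 CPM in S1-57, with a median of 26.7, and at 17.8 to 806 in Control-57, with a median of 22.98. It was called at -2.86 ± 0.79 (adjusted p = 0.0391), although 4 controls lay within the range of S1-57 and the group medians ran the other way. Mouse 84 stood at 806 CPM and mouse 82 at 269. Without mouse 84 the log2 fold change of CYBB was -1.47, and without mice 82 and 84 it turned to 0.33. Its call was lost when any one of mice 25, 27, 28, 29, 30, 82, 83 and 84 was left out (adjusted p up to 0.343).

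LYZ2, the lysozyme of macrophages and neutrophils, whose near-identical copy Lyz1 makes the match of its probe uncertain, had a median of 376 CPM in S1-57 and 957 in Control-57 and fell by 1.93 ± 0.49 (adjusted p = 0.0288). NRROS, a protein that limits reactive oxygen production in phagocytes, had medians of 79.7 and 182 CPM and fell by 1.84 ± 0.49 (adjusted p = 0.0319). ITGAL, the alpha chain of the leukocyte integrin LFA-1, had medians of 42.8 and 64.1 CPM and fell by 1.74 ± 0.46 (adjusted p = 0.0319). Mouse 82 was the highest control for LYZ2 (3125 CPM) and NRROS (902 CPM), and mouse 84 for ITGAL (342 CPM). AW112010, an interferon-induced transcript of immune cells, had medians of 149 and 371 CPM and fell by 1.71 ± 0.47 (adjusted p = 0.0361). Without mouse 82, LYZ2 stood at -1.52, NRROS at -1.01 and ITGAL at -1.34. Without mice 82 and 84, LYZ2 stood at -0.94, NRROS at -0.89, ITGAL at -0.27 and AW112010 at -0.95, and none of these 4 was called. Single mice whose removal ended the call were 28, 29, 30, 82 and 84 for LYZ2 (adjusted p up to 0.166), 25 to 30, 82 and 83 for NRROS (up to 0.398), 26 to 30, 82 and 84 for ITGAL (up to 0.193), and 25, 27 to 30 and 81 to 84 for AW112010 (up to 0.166).

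Of the 8 macrophage markers tested, none was above 0 and the median was -0.74. At an unadjusted p under 0.05, 4 were lower (7.3% over all genes), and 2, TYROBP and CYBB, were DEGs. Their median was 0.24 without mice 82 and 84, beside 0.19 over all genes. MPEG1, a pore-forming protein of macrophages, stood at -1.24 (adjusted p = 0.240), C1QB, a chain of complement C1q made by Kupffer cells, at -1.05 (adjusted p = 0.287), and C1QC at -0.43 (adjusted p = 0.727). Without mouse 82, MPEG1 stood at -0.59. The 8 markers summed to 2117, 1829, 2123, 1045, 972 and 798 CPM in mice 25 to 30 of S1-57 and to 1487, 3240.1, 2581, 18281, 2145 and 6733 CPM in mice 79 to 84 of Control-57 (exact permutation p = 0.0173, adjusted p = 0.162 over 15 measures). TYROBP was their most abundant gene over the 12 libraries together, with 49.4% of the sum. In S1-57 the median of MPEG1 was higher, at 639 CPM against 263 for TYROBP. No marker was at 0 in all 12 libraries, though 2 were at 0 in some. The part of macrophage RNA in the decreases of TYROBP, LYZ2, NRROS, NFKB2 and NFKBIA was not tested, and fewer cells of a type and less RNA per cell cannot be told apart in these sections.

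The lymphocyte markers tested had a median of -0.94, with 3 of 11 above 0 and ITGAL as their 1 DEG, and the neutrophil and monocyte markers one of -0.52, with 1 of 4 above 0 and no DEG. These medians were 0.51 and 0.90 without mice 82 and 84. CORO1A, an actin-binding protein of leukocytes, was the most abundant lymphocyte marker with 29.4% of the sum and stood at -0.95 (adjusted p = 0.568). The 3 lymphocyte markers above 0 were CD79A at 0.31 (adjusted p = 0.932), CD79B at 1.14 (adjusted p = 0.671) and CD4 at 1.04 (adjusted p = 0.694). These 3 were chosen after their values were seen. LCN2, an iron-siderophore binding protein of neutrophils and stressed hepatocytes, was the most abundant neutrophil marker with 73.5% of the sum and stood at -2.83 (adjusted p = 0.288), or at -0.44 without mouse 84. The lymphocyte markers summed to 144 to 458 CPM in S1-57, with a median of 208, and to 143 to 1545 in Control-57, with a median of 242, and the neutrophil markers to 49.04 to 497, with a median of 154, and 103 to 3923, with a median of 176. None of the 11 and 4 was at 0 in all 12 libraries, and 7 and 4 were at 0 in some. Neither sum passed the exact permutation test (p = 0.335 and p = 0.327, adjusted p = 0.559 for both), and the part of these cells in the result for ITGAL was not tested.

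Interferon-responsive genes had a median of -0.63, with 5 of 22 above 0, 5 lower at an unadjusted p under 0.05 (7.3% over all genes) and AW112010 called. Summed, they stood at 1124 to 4496 CPM in S1-57 and at 1029 to 6731 in Control-57, where mice 82 and 84 held 6695 and 6731 and the other 4 held at most 1669. The median without that pair was 0.69. Antigen presentation genes had a median of -0.19, with 2 of 10 above 0, or 0.67 without mice 82 and 84. By mean CPM over the 12 libraries their most abundant member was CD74, the invariant chain of MHC class II. CD74 stood at 725 to 2833 CPM in S1-57, with a median of 900.2, and at 1406 to 22777 in Control-57, with a median of 2383 (-2.33 ± 0.69, adjusted p = 0.0729). H2-K1 had the higher median in both groups, at 3854 CPM in S1-57 and 2536 in Control-57, and stood at 0.38 (adjusted p = 0.830). CD74 was not called, stood at -1.34 without mouse 82, and was called without mouse 79 (-2.53, adjusted p = 0.0436) and by DESeq2 (-2.24, adjusted p = 0.0210).

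A pair of NF-kB pathway genes fell. NFKBIA encodes the inhibitor IkB-alpha, which holds NF-kB in the cytoplasm and is itself an NF-kB target (ENSMUSG00000021025, chr12:55489410-55492647 in GRCm38, minus strand). It stood at 169.9 to 524 CPM in S1-57, with a median of 249, and at 429 to 1589.7 in Control-57, with a median of 919. The groups overlapped through mouse 30 of S1-57 alone, at 524 CPM. NFKBIA fell by 1.69 ± 0.33 (adjusted p = 0.00273), kept its call without any 1 library, at -1.98 to -1.43, and was not called without mice 82 and 84 (-1.28, adjusted p = 0.0683). NFKB2, the p100 precursor of the non-canonical pathway (ENSMUSG00000025225, chr19:46304320-46312385 in GRCm38, plus strand), stood at 34.4 to 75.4 CPM in S1-57, with a median of 43.9, and at 43.7 to 408 in Control-57, with a median of 129. Mice 82 and 84 were its highest controls, at 408 and 368 CPM. It fell by 1.96 ± 0.50 (adjusted p = 0.0288), to -1.56 without mouse 82 and -0.92 without mice 82 and 84. Its call was lost without any one of mice 25, 26, 27, 29, 30, 82 and 84 (adjusted p up to 0.1699).

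The promoters of both genes are shown because the pair fell together; each line gives the 120 bases that end 1 base before a RefSeq start, 5′ to 3′ on the gene's strand, at chr12:55492648-55492767 (minus strand) for NFKBIA and chr19:46304617-46304736 (plus strand) for NFKB2, with matches to the NF-kB consensus in capitals.
NFKBIA: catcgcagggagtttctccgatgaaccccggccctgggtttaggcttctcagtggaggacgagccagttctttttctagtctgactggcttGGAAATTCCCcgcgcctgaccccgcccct
NFKB2: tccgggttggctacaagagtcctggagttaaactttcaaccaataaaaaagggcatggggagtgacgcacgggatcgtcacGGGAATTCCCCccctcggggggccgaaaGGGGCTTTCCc
The consensus of 10 bases was searched on both strands, with overlapping matches counted, in windows from 250 bases before to 50 bases after each start in RefSeq sequence of GRCm38.p6. The NFKBIA start had 1 match, whose first base lies 29 bases before the start, and all 3 NFKB2 starts had a match. The printed NFKB2 start had 4 matches over both strands, with first bases 39 to 11 bases before it, and they fall in the 2 stretches in capitals. Of all windows, 1480 of 32851 (4.51%) held the consensus. Among genes with a window it was held by 118 of the 1649 tested (7.16%), 6 of the 20 in the TNF and NF-kB list and 4 of the 26 DEGs (15.4%).

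Among the 25 TNF and NF-kB genes tested, 9 were above 0 and the median was -0.32. At an unadjusted p under 0.05, 8 were lower, NFKBIA and NFKB2 among them, and none was higher (7.3% and 5.99% over all genes). The median was 0.23 without mice 82 and 84, and without mice 27 and 28 it was -0.67, beside 0.19 and -0.08 over all genes. IKBKB and CHUK, the kinases that mark IkB for degradation, stood at -0.32 (adjusted p = 0.812) and 0.65 (adjusted p = 0.552). BIRC3, an inhibitor of apoptosis, RELB, the partner of the p100 product, and TNFAIP3, the A20 ubiquitin-editing enzyme, are NF-kB targets chosen after their values were seen, and none was called. BIRC3 stood at -1.45 ± 0.48 (adjusted p = 0.118), RELB at -2.36 ± 0.88 (adjusted p = 0.162) and TNFAIP3 at -1.91 ± 0.75 (adjusted p = 0.195). Without mouse 84, RELB stood at -1.14 and TNFAIP3 at -1.06, without mouse 82 BIRC3 stood at -0.84, and without both mice RELB stood at 0.13. The summed level of the list was 2548 to 4149 CPM in S1-57, and in Control-57 it was 2922 to 3773 in 4 mice, 6591 in mouse 82 and 9455 in mouse 84.

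**Figure D2:**
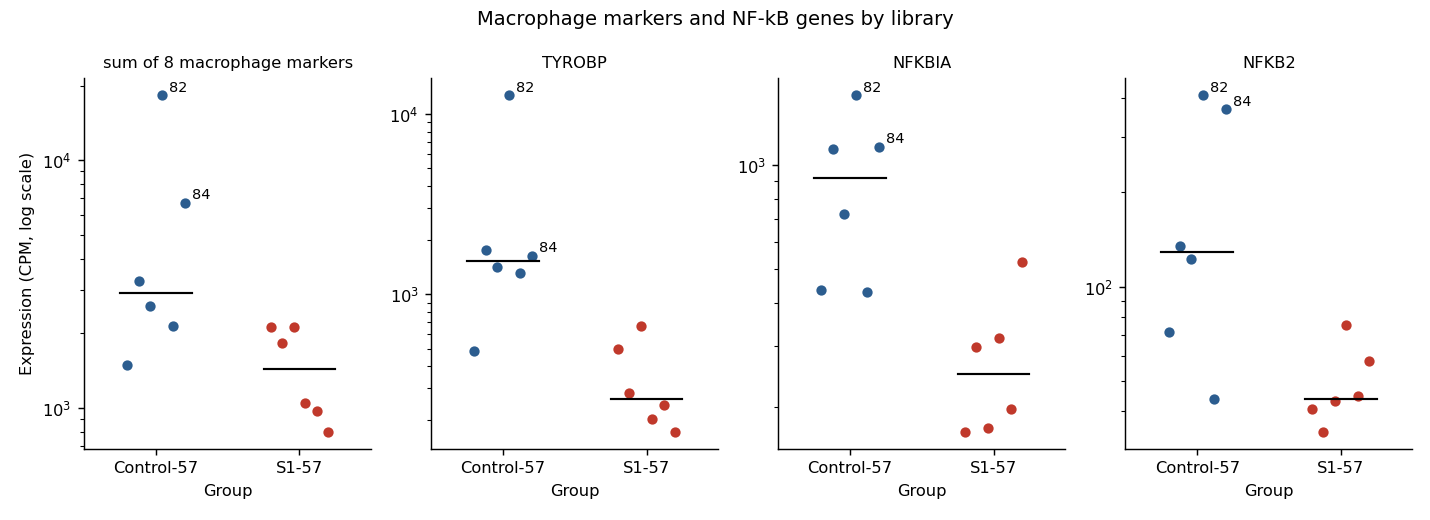
Summed level of the 8 macrophage markers and levels of TYROBP, NFKBIA and NFKB2 in each library (CPM, log axis; 6 mice per group), with mice 82 and 84 of Control-57 labelled. The marker sum runs from 798 to 2123 CPM in S1-57 and from 1487 to 18281 in Control-57, and mouse 82 holds the highest TYROBP level at 12747.

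FMO5, ALDH2 and UGT1A6A, enzymes of detoxification, fell. FMO5, a flavin-containing monooxygenase of the endoplasmic reticulum (ENSMUSG00000028088, chr3:97628804-97655282 in GRCm38), stood at 335 to 1177 CPM in S1-57, with a median of 979, and at 1509.7 to 3512 in Control-57, with a median of 2406. Every S1-57 library lay below every control, with mouse 27 lowest at 335 CPM. FMO5 fell by 1.48 ± 0.27 (adjusted p = 0.00117) and stayed between -1.62 and -1.30 without any 1 library. ALDH2, the mitochondrial dehydrogenase that clears acetaldehyde (ENSMUSG00000029455, chr5:121566027-121593824 in GRCm38), stood at 1809 to 6178 CPM in S1-57, with a median of 4724, and at 5851 to 10091 in Control-57, with a median of 9471. The overlap came from mouse 30 of S1-57 and mouse 82 of Control-57. ALDH2 fell by 0.92 ± 0.24 (adjusted p = 0.0292) and, without mice 82 and 84, stood at -1.12 (adjusted p = 0.0131). UGT1A6A, a glucuronosyltransferase of phenols that shares exons with the rest of its gene cluster, so that the match of its probe is uncertain, stood at 177 to 820.0 CPM in S1-57, with a median of 477, and at 918 to 1219 in Control-57, with a median of 1055. The groups did not overlap, and it fell by 1.10 ± 0.28 (adjusted p = 0.0288). Calls were lost without any one of mice 25, 27, 28, 29, 79, 80, 81 and 83 for ALDH2 (adjusted p up to 0.0805) and 25, 27, 28, 82 and 83 for UGT1A6A (up to 0.0805). Without mice 27 and 28 FMO5 stood at -1.26 and was called (adjusted p = 0.0353), while ALDH2 at -0.72 and UGT1A6A at -0.87 were not.

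Targets of the xenobiotic receptors CAR and PXR had a median of -0.40, with 6 of 23 above 0 and UGT1A6A as their DEG, and AHR targets one of -0.31, with 2 of 6 above 0, or 0.03 without mice 82 and 84. NR1I3, which is CAR itself, stood at -0.51 (adjusted p = 0.727), CYP2C29 at -0.91 (adjusted p = 0.495) and CYP2A5 at -0.81 (adjusted p = 0.650). NRF2 targets, which handle oxidants and electrophiles, had a median of -0.43, with 5 of 24 above 0 and no DEG. At an unadjusted p under 0.05, 1 was higher and 3 were lower (5.99% and 7.3% over all genes). PRDX1, a peroxide-reducing enzyme, stood at -0.75 ± 0.27 (adjusted p = 0.160), and GSTP1, a glutathione transferase, at -0.67 (adjusted p = 0.552). ME1, the cytosolic malic enzyme that makes NADPH, (chosen after its values were seen) stood at -1.41 ± 0.43 (adjusted p = 0.0812). It was called without mouse 84 (-1.62, adjusted p = 0.0312) and by DESeq2 (-1.36, adjusted p = 0.0210).

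Another 4 genes that fell encode transporters or membrane proteins. SCARB1, the receptor that takes up cholesterol from HDL, stood at 36.3 to 95.8 CPM in S1-57, with a median of 81.7, and at 102 to 261 in Control-57, with a median of 172 (-1.21 ± 0.31, adjusted p = 0.0288). SLC16A7, a carrier of pyruvate and lactate across the plasma membrane, stood at 47.2 to 71.6 CPM in S1-57, with a median of 59.2, and at 92.4 to 253 in Control-57, with a median of 128 (-1.25 ± 0.32, adjusted p = 0.0288). Neither gene's groups overlapped. TM7SF3, a multi-pass membrane protein, stood at 187 to 323 CPM in S1-57, with a median of 290.3, and at 409 to 764 in Control-57, with a median of 656 (-1.14 ± 0.30, adjusted p = 0.0318), again without overlap. ENPP1, an enzyme that makes pyrophosphate outside the cell, had medians of 36.9 and 89.1 CPM and fell by 1.31 ± 0.33 (adjusted p = 0.0288). The groups of ENPP1 overlapped, and it stood at -1.56 without mice 82 and 84 (adjusted p = 0.0282).

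Each of these 4 calls was lost without any one of several mice, while the log2 fold changes kept their sign. In the fits without 1 library they ran from -1.36 to -1.06 for SCARB1 and -1.35 to -1.01 for SLC16A7. For TM7SF3 they ran from -1.23 to -1.04 and for ENPP1 from -1.48 to -1.07. The calls were lost without any one of mice 27, 29, 30, 80, 82 and 83 for SCARB1 (adjusted p up to 0.131), 25, 27 to 30, 80, 82 and 83 for SLC16A7 (up to 0.120), and 25, 27 to 30 and 81 to 83 for TM7SF3 (up to 0.0856). For ENPP1 the mice were 25, 27 to 30 and 80 to 83 (adjusted p up to 0.0992). Over the whole hepatocyte list, 3 of 14 markers were above 0, 3 were lower at an unadjusted p under 0.05 (7.3% over all genes) and the median was -0.24. VTN, the plasma adhesion protein vitronectin, had the lowest value of the 14, -1.06 (adjusted p = 0.131). APOE stood at -0.65 (adjusted p = 0.195) and SERPINA3K, a secreted protease inhibitor, at -0.40 (adjusted p = 0.868). The 3 markers above 0 were TTR at 0.03 (adjusted p = 0.985), APOA1 at 0.08 (adjusted p = 0.953) and FGB at 0.38 (adjusted p = 0.880). APOA1 and FGB were chosen after their values were seen. None of the 14 markers was at 0 in all 12 libraries and 1 was at 0 in some, and their part in the decreases of FMO5, ALDH2, UGT1A6A and SCARB1 was not tested.

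**Figure D3:**
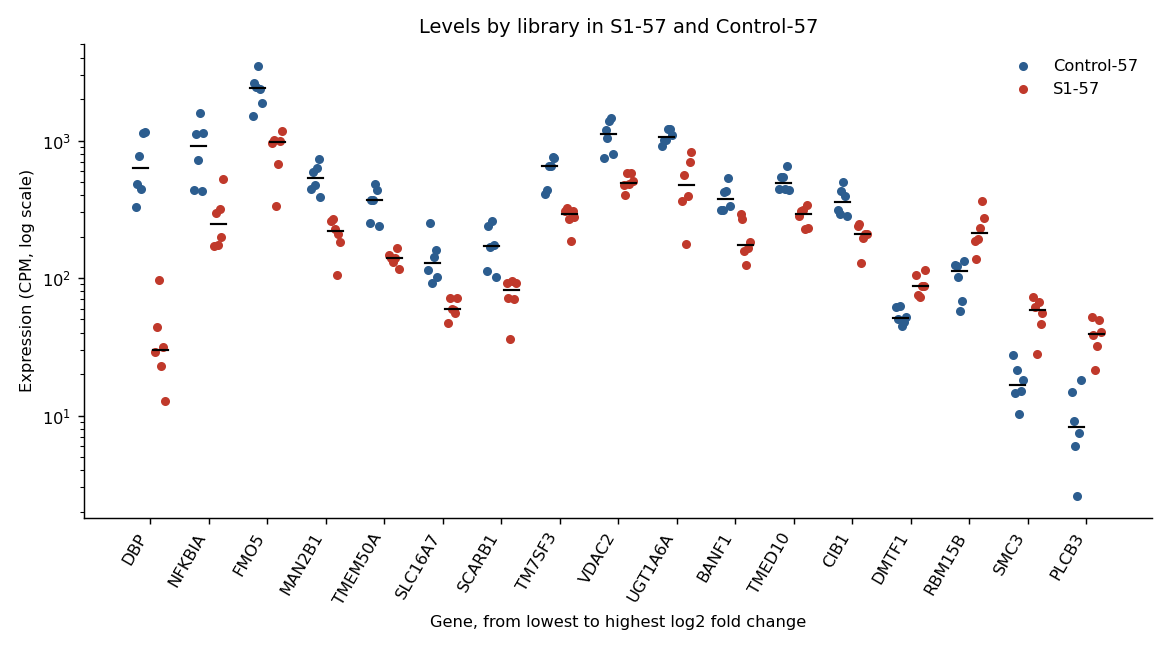
Level of each of the 16 DEGs whose groups do not overlap, and of NFKBIA, in each library (CPM, log axis; blue Control-57, red S1-57, black bars the medians of 6 mice). FMO5 runs from 335 to 1177 CPM in S1-57 and from 1509.7 to 3512 in Control-57, and DBP from 12.8 to 96.7 and from 326 to 1162.

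A pair of mitochondrial genes fell. VDAC2, a channel of the outer mitochondrial membrane (chr14:21825238-21845879 in GRCm38), stood at 401 to 585 CPM in S1-57, with a median of 492, and at 745 to 1469 in Control-57, with a median of 1123. All S1-57 libraries lay below all controls, and VDAC2 fell by 1.13 ± 0.26 (adjusted p = 0.0116). CYCS, the electron carrier cytochrome c, had medians of 115 and 278 CPM with overlapping groups and fell by 1.17 ± 0.31 (adjusted p = 0.0319). VDAC2 lost its call without mouse 82 or mouse 83 (adjusted p up to 0.0708), and CYCS without any one of mice 25, 26, 27, 29, 30, 81, 82 and 83 (up to 0.1699). Oxidative phosphorylation genes had a median of -0.29, with 5 of 19 above 0, 4 lower at an unadjusted p under 0.05 (7.3% over all genes) and CYCS called. NDUFA1, a subunit of complex I, stood at -0.78 (adjusted p = 0.467), and SDHA, the catalytic subunit of complex II, at 0.45 (adjusted p = 0.502). NDUFA9, another complex I subunit and chosen after its values were seen, stood at -0.83 ± 0.25 (adjusted p = 0.0807), with medians of 632 and 1014 CPM. It was called without mouse 84 (-1.004, adjusted p = 0.0235) and by DESeq2 (-0.77, adjusted p = 0.0491).

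The lists of other fuel pathways held no DEG. Genes of pyruvate dehydrogenase and the TCA cycle had a median of 0.10, with 4 of 8 above 0 (-0.00392 without mice 82 and 84), and CS, the citrate synthase, stood at 0.31 (adjusted p = 0.718). Glycolysis and gluconeogenesis genes had a median of 0.27, with 7 of 12 above 0. GAPDH stood at 0.81 ± 0.30 (adjusted p = 0.162; DESeq2 0.93, adjusted p = 0.0491). Glycogen genes had a median of -0.26, with 2 of 5 above 0, and insulin signalling genes one of 0.12, with 13 of 20 above 0 (-0.06 without mice 27 and 28). AKT1, a kinase of insulin signalling, stood at 0.49 (adjusted p = 0.512). IGFBP1, an insulin-repressed binding protein, stood at 1.45 (adjusted p = 0.613) and at -0.56 without mouse 27. PPARA and its targets, which burn fatty acids, had a median of -0.14, with 10 of 25 above 0. FABP1, the liver fatty acid binding protein, stood at -0.48 (adjusted p = 0.671), and SLC27A2, a fatty acid importer and activator, at -0.51 (adjusted p = 0.624). Cholesterol synthesis and uptake genes had a median of -0.27, with 7 of 19 above 0, and SQLE, the squalene epoxidase, stood at -1.12 (adjusted p = 0.594) and INSIG1, the sterol-sensing retention protein, at -0.52 (adjusted p = 0.595).

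DPM1 and TMED10 of the secretory pathway, MAN2B1 of lysosomes and TMEM50A, a membrane protein of little known function, fell. DPM1, the catalytic subunit of dolichol-phosphate mannose synthase (ENSMUSG00000078919, chr2:168209048-168230591 in GRCm38), stood at 258 to 465 CPM in S1-57, with a median of 363, and at 351 to 2057 in Control-57, with a median of 1075. Control mouse 84, at 351 CPM, lay within the range of S1-57 and the other controls above it. DPM1 fell by 1.65 ± 0.37 (adjusted p = 0.0116). MAN2B1, a lysosomal mannosidase that degrades glycans, stood at 105 to 267 CPM in S1-57, with a median of 219, and at 391 to 737 in Control-57, with a median of 535. TMED10, a cargo receptor between the endoplasmic reticulum and the Golgi, stood at 226 to 340.3 CPM in S1-57, with a median of 294, and at 436 to 656 in Control-57, with a median of 492. TMEM50A (ENSMUSG00000028822, chr4:134897849-134915024 in GRCm38) stood at 117 to 166 CPM in S1-57, with a median of 139.8, and at 240.1 to 479 in Control-57, with a median of 368. MAN2B1, TMED10 and TMEM50A showed no overlap between the groups, and they fell by 1.38 ± 0.35 (adjusted p = 0.0288), 0.85 ± 0.19 (adjusted p = 0.0116) and 1.35 ± 0.25 (adjusted p = 0.00117).

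TMEM50A was a DEG in all 12 fits without 1 library and in 13 of 13 other settings. Without mice 82 and 84, DPM1 (-1.73, adjusted p = 0.0282), TMED10 (-0.96, adjusted p = 0.0131) and TMEM50A (-1.35, adjusted p = 0.0131) kept their calls. Without mice 27 and 28, TMED10 (-0.87, adjusted p = 0.0483) and TMEM50A (-1.38, adjusted p = 0.0353) kept theirs and DPM1 (-1.63, adjusted p = 0.101) did not. Single mice whose removal ended a call were 30, 82 and 83 for DPM1 (adjusted p up to 0.0712), 27 to 30, 82 and 83 for MAN2B1 (up to 0.0745) and 83 for TMED10 (0.0671).

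Protein folding genes held no DEG. Unfolded protein response genes had a median of 0.43, with 16 of 23 above 0, 4 higher and 2 lower at an unadjusted p under 0.05 (5.99% and 7.3% over all genes). CANX, a lectin chaperone of glycoproteins, stood at -0.55 ± 0.22 (adjusted p = 0.183), PPIB, a prolyl isomerase of the endoplasmic reticulum, at -0.72 ± 0.29 (adjusted p = 0.195), and HSP90B1, its HSP90 chaperone, at 1.05 ± 0.38 (adjusted p = 0.151). HSP90B1 stood at 0.45 without mouse 28 and was called by DESeq2 (1.15, adjusted p = 0.0468). Heat shock proteins and co-chaperones had a median of 0.22, with 12 of 18 above 0. At an unadjusted p under 0.05, 5 of them were higher and none lower, beside 5.99% and 7.3% over all genes. Of the 3 most abundant members of this list, the cytosolic chaperones HSP90AB1, HSP90AA1 and HSPA4, the first stood at 0.43 (adjusted p = 0.512), the second at -0.17 (adjusted p = 0.877) and the third at -0.40 (adjusted p = 0.429). HSPA1B, the stress-induced HSP70, HSPH1, its nucleotide exchange factor, BAG3, its co-chaperone, DDIT3, the stress transcription factor CHOP, and HYOU1, a chaperone of the endoplasmic reticulum, were chosen after their values were seen. HSPA1B stood at 11.4 to 299.5 CPM in S1-57, with a median of 145, and at 25.6 to 38.2 in Control-57, with a median of 30.1 (2.25 ± 0.70, adjusted p = 0.0956; DESeq2 2.29, adjusted p = 0.0150). HSPH1 stood at 199 to 276 CPM in S1-57, with a median of 264, and at 51.4 to 223 in Control-57, with a median of 81.7 (1.31 ± 0.45, adjusted p = 0.131; DESeq2 1.43, adjusted p = 0.0230). Without mouse 79, HSPH1 was called (1.71, adjusted p = 0.0399). BAG3 stood at 1.03 (adjusted p = 0.162; DESeq2 1.12, adjusted p = 0.0456), DDIT3 at 1.32 ± 0.50 (adjusted p = 0.173) and HYOU1 at 1.07 ± 0.43 (adjusted p = 0.211), or 0.21 without mouse 28.

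A further 4 genes that fell act in the cytoskeleton, cell adhesion or the nuclear envelope. CIB1, a calcium- and integrin-binding protein, stood at 128 to 249 CPM in S1-57, with a median of 208, and at 281 to 503 in Control-57, with a median of 355 (-0.85 ± 0.21, adjusted p = 0.0288). BANF1, which ties chromatin to the nuclear envelope, stood at 124 to 293 CPM in S1-57, with a median of 174, and at 310.4 to 534 in Control-57, with a median of 378 (-0.97 ± 0.24, adjusted p = 0.0286). The groups of CIB1 and BANF1 did not overlap, with mouse 27 lowest for CIB1. TUBA1B, an alpha-tubulin whose near-identical copies make the match of its probe uncertain, had medians of 439.7 and 1045 CPM and fell by 1.31 ± 0.35 (adjusted p = 0.0319). ARPC3, a subunit of the complex that branches actin filaments, had medians of 424 and 931 CPM and fell by 1.23 ± 0.34 (adjusted p = 0.0412). Groups of TUBA1B and ARPC3 overlapped at their edges. Calls were lost without any one of mice 27 to 30 and 81 to 83 for CIB1 (adjusted p up to 0.131), 27, 28, 29, 82 and 83 for BANF1 (up to 0.0712), 25 to 30 and 81 to 83 for TUBA1B (up to 0.224), and 25 to 30 and 80 to 83 for ARPC3 (up to 0.252).

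SMC3, RBM15B, DMTF1, TRP53BP1 and ILF2, which encode nuclear proteins, rose, and no list of such genes was tested. SMC3, a core subunit of the cohesin ring (ENSMUSG00000024974, chr19:53600398-53645833 in GRCm38), stood at 28.04 to 72.4 CPM in S1-57, with a median of 58.6, and at 10.3 to 27.7 in Control-57, with a median of 16.6. Its groups did not overlap, it rose by 1.62 ± 0.35 (adjusted p = 0.00878), and it stayed at 1.51 to 1.78 and called without any 1 library. RBM15B, an RNA-binding partner of the RNA methyltransferase complex, stood at 139 to 365 CPM in S1-57, with a median of 211, and at 57.9 to 133 in Control-57, with a median of 112 (1.19 ± 0.33, adjusted p = 0.0391). DMTF1, a transcription factor that acts on the ARF and p53 pathway, stood at 72.9 to 114 CPM in S1-57, with a median of 87.8, and at 44.5 to 62.7 in Control-57, with a median of 51.4 (0.76 ± 0.21, adjusted p = 0.0331). The groups of RBM15B and DMTF1 did not overlap. TRP53BP1, a mediator of DNA break repair, had medians of 61.8 and 26.8 CPM and rose by 1.06 ± 0.28 (adjusted p = 0.0331). ILF2, a nuclear RNA-binding protein, had medians of 247 and 105 CPM and rose by 1.31 ± 0.34 (adjusted p = 0.0288). Groups of TRP53BP1 and ILF2 overlapped. SMC3 stood at 1.47 without mice 82 and 84 (adjusted p = 0.0529). Mice whose removal ended the call were 25, 27 to 30 and 80 to 83 for RBM15B (adjusted p up to 0.142), 25, 28 to 30, 80 and 82 to 84 for DMTF1 (up to 0.123), 25, 27, 29, 30 and 79 to 83 for TRP53BP1 (up to 0.103), and 27 to 30, 82 and 83 for ILF2 (up to 0.110).

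The other genes that rose were PLCB3, CHKA and PRKG1. PLCB3, a phospholipase C downstream of G protein-coupled receptors (chr19:6952325-6976470 in GRCm38), stood at 21.4 to 51.9 CPM in S1-57, with a median of 39.5, and at 2.59 to 18.03 in Control-57, with a median of 8.28. All S1-57 libraries lay above all controls, and PLCB3 rose by 1.99 ± 0.49 (adjusted p = 0.0286). CHKA, the choline kinase that starts phosphatidylcholine synthesis, stood at 17.9 to 164 CPM in S1-57, with a median of 106, and at 5.17 to 47.2 in Control-57, with a median of 7.51 (2.59 ± 0.65, adjusted p = 0.0288). PRKG1, the cGMP-dependent protein kinase, had medians of 176 and 57.1 CPM and rose by 1.14 ± 0.31 (adjusted p = 0.0360). The groups of CHKA and PRKG1 overlapped. Calls were lost without any one of mice 25, 29 and 81 to 83 for PLCB3 (adjusted p up to 0.0745), 27, 29, 30 and 80 to 83 for CHKA (up to 0.0916), and 25, 27 to 30 and 81 to 84 for PRKG1 (up to 0.126).

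DBP, a transcription factor of the circadian output whose level swings over the day (ENSMUSG00000059824, chr7:45705088-45710203 in GRCm38), had the lowest fold change of the 35. It stood at 12.8 to 96.7 CPM in S1-57, with a median of 30.1, and at 326 to 1162 in Control-57, with a median of 627. All 6 S1-57 mice lay below all 6 controls, and DBP fell by 4.18 ± 1.10 (adjusted p = 0.0319). Its log2 fold change without any 1 library was -4.67 to -3.96, and the call was lost without any one of mice 25, 26, 28, 29, 30, 81, 82 and 83 (adjusted p up to 0.0797). Of the 7 clock genes tested, 3 were above 0 and the median was -0.03. TSC22D3, a glucocorticoid-induced gene, stood at -0.75 (adjusted p = 0.512), BHLHE40, a clock repressor, at -0.97 (adjusted p = 0.308), and NFIL3, which opposes DBP on shared sites, at 0.98 (adjusted p = 0.346). Across the 13 groups, 31 of 68 libraries had DBP under 100 CPM, a level chosen after the values were seen: 6 of 6 in S1-57, 6 of 6 in S1-78, 5 of 6 in S1-32 and 3 of 6 in S1-10. In the controls the count was 0 of 6 in Control-57, 3 of 6 in Control-78, 2 of 6 in Control-32 and 0 of 4 in Control-10. In the groups with longer DCA it was 2 of 6 in S2-32, 1 of 5 in S3-57, 1 of 4 in S2-78, 2 of 4 in S3-78 and 0 of 3 in Direct-78. S1-78 stood at 21.0 to 98.0 CPM, with a median of 27.1, and Control-78 at 11.5 to 2233, with a median of 142. S3-57, with DCA to the end, stood at 81.4 to 1326 CPM, with a median of 916. The part of the hour of collection in these levels was not tested, since the labels do not give it.

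**Figure D4:**
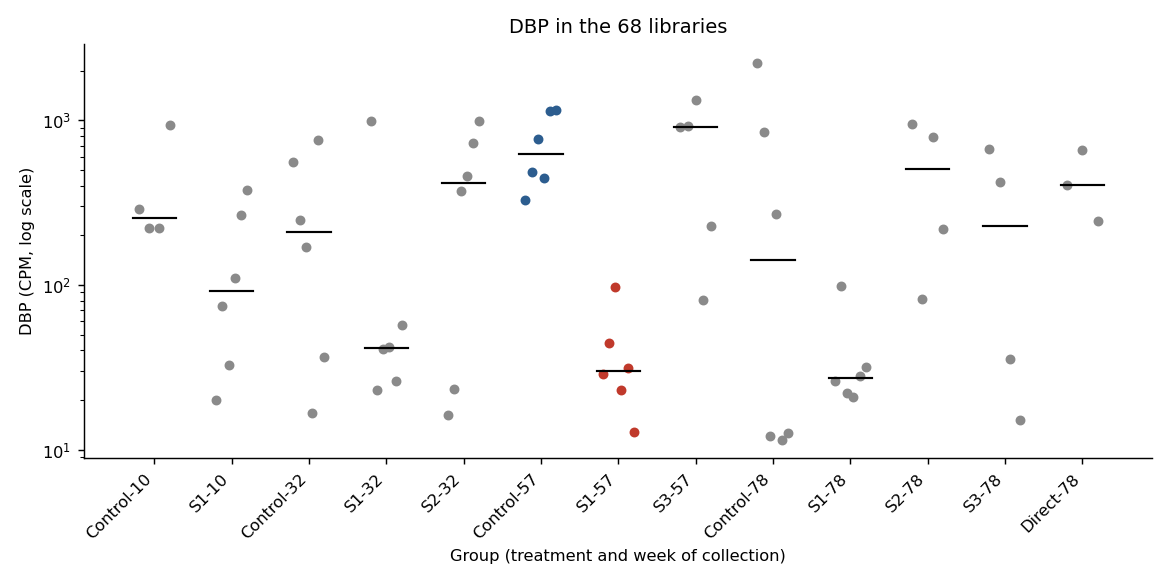
DBP level in each of the 68 libraries by group (CPM, log axis; bars are medians). All 6 S1-57 mice lie between 12.8 and 96.7 CPM and all 6 Control-57 mice between 326 and 1162, while Control-78 mice lie between 11.5 and 2233.

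Of the 41 gene lists, 8 held a DEG and 33 held none, and 26 of the 35 DEGs were in no list. Cell cycle genes had a median of 0.08, with 24 of 46 above 0, or 0.65 without mice 82 and 84 and -0.75 without mice 27 and 28. TK1, the thymidine kinase of S phase, stood at -1.29 (adjusted p = 0.383) and CDK4 at 0.50 (adjusted p = 0.552). Targets of p53 had a median of 0.07 with 10 of 18 above 0, and immediate-early genes one of 0.09 with 11 of 17 above 0. These medians were 0.30 and 0.66 without mice 82 and 84 and -0.12 and -0.29 without mice 27 and 28. Among the immediate-early genes, BTG2, an antiproliferative gene, stood at 1.41 (adjusted p = 0.308). Acute phase genes had a median of -0.34 with 7 of 16 above 0, complement genes one of -0.03 with 7 of 14, coagulation genes one of -0.09 with 7 of 16, collagen and matrix genes one of -0.05 with 11 of 25, and proteasome genes one of -0.03 with 6 of 13. At an unadjusted p under 0.05, 1 of the 14 complement genes was higher and 4 were lower (C3, C8B, C9 and VTN). Over all genes these shares were 5.99% and 7.3%. Under RLE scaling the complement, coagulation, matrix, proteasome and clock medians turned to 0.06, 0.02, 0.03, 0.13 and 0.12. Leaving out mice 82 and 84 turned the matrix and clock medians to 0.25 and 0.25, and leaving out mice 27 and 28 turned the complement and coagulation medians to 0.07 and 0.16. FGG, a fibrinogen chain, stood at 0.92 (adjusted p = 0.383). Liver tumour markers had a median of 0.05, with 6 of 11 above 0, or -0.08 without mice 27 and 28.

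Male-biased genes of the growth hormone axis had a median of 0.31, with 11 of 18 above 0 and 3 higher at an unadjusted p under 0.05 (5.99% over all genes), and no DEG. MUP8, a major urinary protein with near-identical copies and so of uncertain probe match, stood at -0.46 (adjusted p = 0.878), and MUP19 at 1.06 (adjusted p = 0.690; limma -0.53). All 4 female-biased genes were above 0, with a median of 0.76, or -0.11 without mice 27 and 28. CYP2A4, a female-biased steroid hydroxylase, stood at 2.08 (adjusted p = 0.409), at 18.96 to 1102 CPM in S1-57 and 36.7 to 74.8 in Control-57, and at -0.38 without mouse 27.

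Markers of other cell types gave no DEG outside those named for macrophages and lymphocytes. Endothelial markers had a median of 0.50, with 7 of 8 above 0. The exception was CLEC1B, their most abundant gene with 51.8% of the sum, at -0.21 (adjusted p = 0.863). VWF stood at 0.00525 (adjusted p = 0.996) and KDR, the VEGF receptor, at 0.99 (adjusted p = 0.462). The KDR medians ran the other way, at 51.2 CPM in S1-57 and 63.2 in Control-57, and its highest S1-57 library held 316 CPM. Stellate cell and fibroblast markers had a median of 0.01 with 4 of 8 above 0, and cholangiocyte markers one of 0.40 with 3 of 5, or -0.19 without mice 27 and 28. Pericentral and periportal hepatocyte markers had medians of -0.07 (2 of 4 above 0) and -0.34 (0 of 4), which turned to 0.32 and 0.07 without mice 27 and 28. Erythroid markers had a median of -0.72, with 0 of 5 above 0, and summed to 303 to 1605 CPM in S1-57, with a median of 600, against 855 to 2108 in Control-57, with a median of 1277 (exact permutation p = 0.0433, adjusted p = 0.216). ALAS2, the erythroid enzyme of heme synthesis, stood at -1.08 (adjusted p = 0.303) and CAR1, a carbonic anhydrase of red cells, at -1.41 (adjusted p = 0.184). Markers listed for exocrine pancreas summed to 107 to 408 CPM in S1-57, with a median of 278. In Control-57 they summed to 296 to 705 CPM, with a median of 431 (exact permutation p = 0.0216, adjusted p = 0.162). AMY1, an amylase, made up 86.7% of the sum, so the test was mainly one of AMY1 and gives no measure of pancreas tissue. AMY1 stood at -0.97 (adjusted p = 0.450), while the 10 genes had a median of 0.44, or -1.48 without mice 27 and 28. Skeletal muscle, adipose and neural markers had medians of 0.38 (4 of 6 above 0), 0.22 (1 of 2) and 0.21 (4 of 8), which turned to -0.31, -0.66 and -0.40 without mice 27 and 28.

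Of 8 genes that the study names for expression, none passed in edgeR. The study tested with DESeq2 and reports SDPR alone as changed at every timepoint. For IRS1, CTNND1 and EBP it reports a shared trend that was not significant in some groups. It names COL1A1, COL4A1 and CEBPB for particular treatment subgroups, and C9 for the groups kept on DCA. SDPR, a caveolar protein, stood at 49.8 to 162 CPM in S1-57, with a median of 101, and at 28.4 to 84.2 in Control-57, with a median of 45.6 (1.07 ± 0.31, adjusted p = 0.0606). It was called with RLE factors (1.23, adjusted p = 0.0205) and upper-quartile factors (1.21, adjusted p = 0.0246), by DESeq2 (1.23, adjusted p = 0.00414), and without mouse 28 (1.22, adjusted p = 0.0423) or mouse 80 (1.28, adjusted p = 0.0314). CTNND1, the catenin p120 of cell junctions, stood at 1010.1 to 5620.0 CPM, with a median of 3082, and at 1058 to 1658, with a median of 1295 (1.27 ± 0.38, adjusted p = 0.0790). It was called without mouse 26 (1.46, adjusted p = 0.0309) and by DESeq2 (1.43, adjusted p = 0.0152). IRS1, the insulin receptor substrate, stood at -0.93 ± 0.33 (adjusted p = 0.151) with medians of 72.3 and 142 CPM. EBP, an isomerase of cholesterol synthesis, stood at -1.49 ± 0.51 (adjusted p = 0.131) with medians of 49.8 and 138 CPM. CEBPB, a transcription factor of the acute phase, stood at -0.61 ± 0.47 (adjusted p = 0.624), and C9, the pore protein of complement, at -1.60 ± 0.64 (adjusted p = 0.196). COL1A1, the main fibrillar collagen, stood at -0.04 ± 0.55 (adjusted p = 0.987) and COL4A1, of basement membranes, at -0.42 ± 0.61 (adjusted p = 0.842). The direction of both collagens turned with the setting: upper-quartile factors gave 0.03 for COL1A1, and leaving out mouse 84 gave 0.28 for COL1A1 and 1.17 for COL4A1.

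After the same 10 weeks of DCA, livers were also collected 22 and 68 weeks off DCA, with water controls of their own. S1-32 had 642 DEGs against Control-32 (29.1%; 262 higher, 380 lower) and S1-78 had 40 against Control-78 (1.81%; 22 higher, 18 lower). Of the 35 DEGs of S1-57, 16 were also among the 642 of S1-32, all in the same direction, and 5 among the 40 of S1-78, while 16 were in neither. FMO5 and DPM1 fell in all 3: FMO5 by 0.74 in S1-32 (adjusted p = 0.0333) and 1.21 in S1-78 (adjusted p = 0.00609), and DPM1 by 1.79 (adjusted p = 5.95e-04) and 1.63 (adjusted p = 0.00631). FMO5 had a median of 792 CPM in S1-32 against 1381 in Control-32, and of 837 in S1-78 against 2222 in Control-78. DBP was called lower in S1-78 (-3.91, adjusted p = 0.0407), although the groups overlapped, at 21.0 to 98.0 CPM in S1-78 and 11.5 to 2233 in Control-78. In Control-78, 3 of 6 mice were under 100 CPM. In S1-32 DBP stood at -0.60 (adjusted p = 0.659). ALDH2 and TM7SF3 fell in S1-78 by 0.87 (adjusted p = 0.0364) and 1.11 (adjusted p = 0.0302). TYROBP, NFKBIA, TMEM50A and SMC3 changed in S1-32, by -2.39 (adjusted p = 0.00557), -1.28 (adjusted p = 0.00379), -0.98 (adjusted p = 0.00316) and 1.38 (adjusted p = 0.00363), and stood at -1.49, -1.05, -0.71 and 1.06 in S1-78 without a call. Over the 27 lower DEGs the median was -0.62 in S1-32 and -0.75 in S1-78, and over the 8 higher ones 0.79 and 0.73. The sign was that of S1-57 for 34 of the 35 in S1-78 and 30 of the 35 in S1-32, beside 67.3% and 59.7% of all genes.

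**Figure D5:**
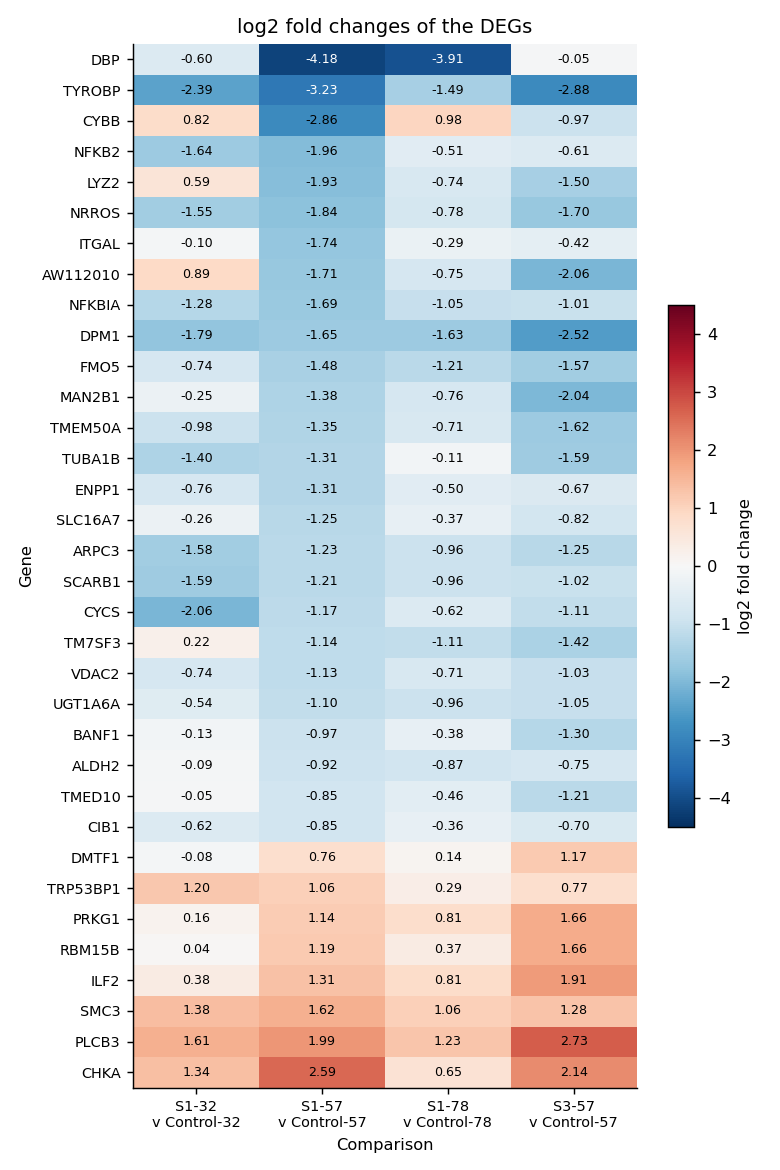
Log2 fold changes of 34 of the 35 DEGs in S1-32, S1-57 and S1-78, each over the water controls of its own week, and in S3-57 over Control-57, which S1-57 shares. Over all 35, the lower DEGs have medians of -0.62, -1.31, -0.75 and -1.21, and the higher ones 0.79, 1.25, 0.73 and 1.66.

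The change at 47 weeks off was then tested against that at 22 weeks off, as the difference of the log2 fold changes. It passed for 38 genes (1.72%; 23 of them with a higher log2 fold change in S1-57 and 15 with a lower one), 2 of them among the 35 DEGs. The balance turned with the setting: 112 higher and 26 lower with RLE, 203 and 25 with upper-quartile factors, 214 and 51 with DESeq2, and 3 and 38 with limma on the authors' normalized values. The 15 negative differences held 5 of the 16 acute phase genes tested, HP, LCN2, SAA1, SAA2 and APCS, and also FDFT1, DHCR7 and INSIG1 of the cholesterol list. HP, the hemoglobin scavenger haptoglobin, had a median of 938 CPM in S1-57 and 2545 in Control-57, against 4313 in S1-32 and 1247 in Control-32, a difference of -3.28 (adjusted p = 0.00106). LCN2 differed by -10.66 (-2.83 against 7.83, adjusted p = 0.00164), SAA2, a serum amyloid A apolipoprotein, by -9.63 (-2.35 against 7.28, adjusted p = 0.0189) and SAA1, its close copy, by -7.41 (-0.86 against 6.55, adjusted p = 0.0308). Other negative differences were those of C3, the central complement component (-2.31, adjusted p = 0.0298), APCS, a pentraxin (-3.36, adjusted p = 0.0426), and LRG1, a secreted leucine-rich glycoprotein (-3.08, adjusted p = 0.0346). The 2 DEGs were AW112010 (-2.59, adjusted p = 0.0298; -1.71 against 0.89) and LYZ2 (-2.52, adjusted p = 0.0404; -1.93 against 0.59). Among the 23 positive differences was that of DDIT3, 2.68 (1.32 against -1.36, adjusted p = 0.0346). HP, LCN2, SAA1, SAA2, C3, APCS, LRG1, DDIT3, FDFT1, DHCR7 and INSIG1 were chosen after their values were seen. The count moved with single mice, to 10 without mouse 84, 12 without 81, 13 without 28, 20 without 79, 23 without 27 and 24 without 29, and to 97 without 25, 150 without 82 and 177 without 26.

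Between 47 and 68 weeks off DCA, 2 genes passed the same test (0.0907%), neither among the 35 DEGs. DNAJB1, a co-chaperone of HSP70, differed by 3.97 (1.24 in S1-57 against -2.74 in S1-78, adjusted p = 0.00822). It stood at 11.1 to 68.98 CPM in S1-57, with a median of 23.1, and at 8.15 to 17.5 in Control-57, with a median of 14.1. In S1-78 it stood at 12.2 to 26.97 CPM, with a median of 23.97, and in Control-78 at 11.7 to 513, with a median of 58.04. The S1-57 and S1-78 levels thus overlapped, and the controls of the later week were the group with the widest range. COL1A1 differed by -3.88 (-0.04 against 3.83, adjusted p = 0.0119), and stood at 63.8 to 970 CPM in S1-78, with a median of 241, and at 9.97 to 42.5 in Control-78, with a median of 23.7. DNAJB1 was chosen after its values were seen. By edgeR 102 genes were at an unadjusted p under 0.05, limma passed 0 genes (66 at that level) and DESeq2 passed 8, and without mice 27 and 28 edgeR passed 0 (135 at that level).

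S1-57 and S3-57 livers were of the same age, the first 47 weeks off DCA and the second on DCA to the end. Both were compared with the same Control-57 mice, so the values stand side by side and the test is that of S1-57 against S3-57 itself. S3-57 had 141 DEGs against Control-57 (6.39%; 63 higher, 78 lower). FMO5 stood at -1.48 in S1-57 and -1.57 in S3-57, DPM1 at -1.65 and -2.52, TYROBP at -3.23 and -2.88, NFKBIA at -1.69 and -1.01, TMEM50A at -1.35 and -1.62, SMC3 at 1.62 and 1.28, and DBP at -4.18 and -0.05. Directly compared, no gene passed in edgeR (0.0%; 111 genes at an unadjusted p under 0.05) or limma (133 at that level), and 7 passed in DESeq2 (175 at that level), among them DBP (-3.98, adjusted p = 0.0156). In edgeR DBP stood at -4.12 in that comparison (adjusted p = 0.205). Without mouse 28 of S1-57, edgeR called 2 genes, AQP1, a water channel, and LOC552876, and without mice 27 and 28 it called these and SULT3A1, a female-biased sulfotransferase. These 3 genes were noted once their values were known.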

How the data were processed

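Per the labels and the study's methods, RNA of liver sections was measured with the TempO-Seq Mouse S1500+ panel, 1 library per mouse. The deposited count table gives unscaled reads for each gene with a probe. The deposited signal tables are the authors' normalized values: each is the raw count plus 1 over a median-ratio factor per library. Bowtie, mm10, DESeq2 and Partek Flow 10.0.22.0524 are named in the submitters' processing notes. Raw counts of the 68 libraries in the authors' normalized table and the 2205 genes of their filtered table were fitted with edgeR 4.0.16 (TMM factors, quasi-likelihood F tests, 13 groups, R 4.3.3). Alternatives used RLE and upper-quartile factors, all genes, filterByExpr, the compared groups alone, all 78 libraries, DESeq2 1.42.0, covariates for total count or detected genes, and fits without 1 library. A further alternative, limma 3.58.1, was run on log2 of the authors' normalized values, so its input and scaling differ from those of the fits on raw counts. Library measures were tested with exact permutation tests (scipy 1.17.1; smallest possible p 0.00216), with Python 3.11.15, numpy 2.4.6, pandas 2.3.3 and matplotlib 3.10.9. The fit was tested on simulated data. Copied libraries were looked for in 30 pairs within the groups, and none was found. Coordinates come from GENCODE vM21 (GRCm38), which held 2628 of the 2755 symbols.

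Members and gene lists were chosen with earlier results of these data known. Named genes were all DEGs when at most 40, those without overlap or called in all fits without 1 library being given in full. From each list came its DEGs and up to 3 members of highest mean CPM. For many lists fewer than 3 of these members, or none, are given, and which ones was decided after their values were seen. PDK1 to PDK4 where on the panel and 8 genes that the study names were added. Values of 1 DEG and of some list members are not given, and the counts and medians include them. The 12 libraries held 919268 to 4153377 counts, and probe reads carry no molecular identifiers.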

Additional observations from a re-analysis of the deposited data

Results flagged for a closer look

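Single mice stood far from the rest of their group in 7 of 98 groups of values tested, where chance gives about 1 in 20. The values tested in each group were the 15 library measures on their own scale and the levels of 34 DEGs on a log2 scale. Mouse 27 of S1-57 held 425 CPM of cholangiocyte markers against 70.9 to 189 in the rest of its group, and its levels of SCARB1 (36.3 against 70.5 to 95.8) and CIB1 (128 against 197 to 249) were low. Mouse 28 of S1-57 was low in TM7SF3, at 187 CPM against 269 to 323. In Control-57, mouse 82 held 18281 CPM of macrophage markers against 1487 to 6733, and mouse 84 held 3923 CPM of neutrophil and monocyte markers against 103 to 858 and 183 CPM of skeletal muscle markers against 38.5 to 73.3.

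Changes that differed between weeks by a direct test numbered 38 between S1-57 and S1-32 and 2 between S1-57 and S1-78. Against S1-32 the differences in log2 fold change were -3.28 for HP, -10.66 for LCN2, -7.41 for SAA1, -9.63 for SAA2, -2.59 for AW112010 and -2.52 for LYZ2. Against S1-78 they were 3.97 for DNAJB1 and -3.88 for COL1A1.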

How the results depend on the processing

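The 35 DEGs numbered 28 with RLE or upper-quartile factors, 26 with all genes tested and 35 with filterByExpr or with the adjusted p alone. They numbered 103 with DESeq2 (61 higher, 42 lower) and 71 without its independent filtering (40 higher, 31 lower), 57 with total count as a covariate, 21 with detected genes as a covariate, 20 with limma, 2 with the compared groups alone and 2 with all 78 libraries. Fits without 1 library gave 6 to 36, the fit without mice 82 and 84 gave 8, and the fit without mice 27 and 28 gave 7. The last 2 alternatives were chosen after seeing the data.

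For the difference from S1-32, the 38 genes became 138 with RLE and 228 with upper-quartile factors, 265 with either form of DESeq2 (214 higher, 51 lower), 41 with limma (3 higher, 38 lower; 17 of the 38), 58 with the compared groups, 4 with all 78 libraries, 10 without mice 82 and 84, 3 without mice 27 and 28, and 10 to 177 without 1 library. For that from S1-78, the 2 genes became 8 with either form of DESeq2, 1 without mice 82 and 84, and 0 with limma (66 at an unadjusted p under 0.05), the compared groups (109), all 78 libraries (58) or without mice 27 and 28 (135). Against S3-57 the count of 0 became 7 with either form of DESeq2, 3 without mice 27 and 28, and 0 to 2 without 1 library.

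Directions that turned were, for COL1A1, 0.0332 (upper-quartile), 0.0659 (limma), 0.19 (detected genes), 0.87 (without mice 82 and 84), 0.0401 (without mice 27 and 28) and 0.10, 0.12, 0.22 and 0.28 without mouse 28, 30, 82 or 84. COL4A1 gave 0.32 (limma), 0.0342 (total count), 1.17 (without mouse 84) and 1.11 (without mice 82 and 84). Leaving out mice 82 and 84 also gave CYBB 0.33, C1QC 0.15, CORO1A 0.44, PTPRC 0.18, SASH3 0.20, LCN2 0.82 and RELB 0.13. MUP19 gave -0.53 with limma. Without mouse 27, CYP2A4 gave -0.38 and IGFBP1 -0.56, and without mice 27 and 28 they gave -0.69 and -0.60 and SERPINA3K 0.00923. Over the fits without 1 library COL1A1 ran from -0.38 to 0.28, COL4A1 from -0.70 to 1.17, CYP2A4 from -0.38 to 2.38 and IGFBP1 from -0.56 to 2.48. The cause was not tested.

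The means of S1-57 and Control-57 rest on 6 mice each, while the spread was estimated in the fit of all 68 libraries in 13 groups. A fit of the compared groups alone called 2 genes. In 12 libraries of 919268 to 4153377 counts the less abundant probes carry few reads. No paired analysis was possible because each mouse gave 1 library.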
